A study of Homo sapiens with 6 samples.

Results

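The 45 genes described here carry out protein folding and quality control in the endoplasmic reticulum (ER). They comprise 7 stress sensors and transcription factors, 9 chaperones of the BiP system, 3 lectin chaperones, 5 disulfide isomerases, 15 genes of ER-associated degradation (ERAD), 5 genes of the translocon and the ER membrane protein gene WFS1. They were taken by symbol from the 60671 genes of the deposited tables, and all 45 were found and passed the filter on low counts that left 20734 genes. RNA was sequenced from NCI-H69, an established line of neuroendocrine small cell lung cancer with MYCN amplification, labelled wild type. In 1 group the cells received the solvent DMSO and in the other GNF5, a compound that inhibits ABL kinases from an allosteric site, at 20 µM per the sample labels, for 48 h in both. The treatment protocol in the labels gives the same dose in millimolar, and the conflict was not resolved. Each group held 3 libraries, with 56467189, 60697602 and 57885182 counts for DMSO and 58771023, 46148701 and 52414089 for GNF5. The labels do not say whether these came from separate cultures, so each p-value reflects the spread among these libraries only, which may be technical. The groups describe a single line at a single time.

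All 12 neuroendocrine markers searched had counts, led by INSM1 with a mean of 1433 CPM. CPM is the count scaled by 1000000 over the TMM-adjusted library size. The summed level of that list was 4094 to 4182 CPM with DMSO and 4253 to 4422 with GNF5. Its genes did not move together: 3 rose and 5 fell, beside 31.0% and 30.7% of all genes tested. SCG3 (log2 fold change 0.60) and NCAM1 (0.59) were among those that rose. Of those that fell, DDC (-1.26), GRP (-1.24) and NEUROD1 (-1.11, from 1.63 to 0.755 CPM) passed a test against 1.5-fold. Marker sums for other cell types were lower. They ran from 129 to 135 CPM with DMSO and 69.3 to 77.2 with GNF5 for 8 fibroblast genes (mostly COL1A2, with COL3A1 at 0), from 4.73 to 5.20 with DMSO and 3.42 to 4.31 with GNF5 for 8 leukocyte genes (CD3E at 0), and from 9.08 to 9.55 with DMSO and 3.96 to 4.94 with GNF5 for 8 lung epithelium genes (SFTPB at 0). In all 3 lists the GNF5 sums lay below the DMSO sums without overlap, and FOXJ1 of the lung list had a log2 fold change of -3.00. The sum of 8 plasma cell genes, included because plasma cells are rich in ER proteins, went from 24.4 to 27.3 CPM with DMSO to 38.2 to 38.6 with GNF5. It was mostly SDC1, which rose by 0.69 on the log2 scale, with TNFRSF17 at 0. The other 2 plasma cell genes that passed the filter, IGHG1 (-1.12, from 0.650 to 0.299 CPM) and IGKC (-1.40, from 1.71 to 0.648 CPM), fell. The part of these markers in the results below was not tested.

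Secreted and membrane proteins enter the ER through the SEC61 channel, fold there with the help of BiP and disulfide isomerases, and are sent back to the cytosol for proteasomal degradation when folding fails. The unfolded protein response adjusts this capacity through the membrane sensors IRE1 (gene ERN1), ATF6 and PERK. IRE1 splices XBP1 mRNA into the form that encodes an active factor, ATF6 is cut by the proteases MBTPS1 and MBTPS2 to release its own factor, and PERK slows translation by phosphorylating eIF2. Gene counts show RNA levels only, so neither the splicing of XBP1 nor the cleavage of ATF6 was measured.

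Most of these genes were higher with GNF5. With edgeR's quasi-likelihood test at an adjusted p under 0.05, 37 of 45 rose, 6 fell and 2 (MBTPS1 and DERL3) did not pass. Across all genes tested, 31.0% rose and 30.7% fell, so the members that rose made up 82.2% against that background. That background depends on the level of the genes kept. With a filter at a mean CPM of 5, 4603 of 11992 genes rose and 4566 fell, beside 37 and 7 of the 45 members. The median log2 fold change was 0.44 over the 45 genes and 0.01 over all genes tested. In bulk RNA a change in the mix of cells and a change in the RNA of each cell cannot be told apart. The 3 GNF5 libraries all lay above the 3 DMSO libraries for 37 members and all below for 7, where 33.1% and 32.8% of all tested genes did so.

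A stricter test, against a change of 1.5-fold (edgeR's glmTreat, adjusted p under 0.05), called 14 members higher, which is 31.1% of them, beside 5.98% of all genes tested. These were ERN1, SEL1L, HERPUD1, EDEM1, DNAJB9, DNAJC10, ATF6, CREB3L2, SELENOS, SEC63, EDEM2, HYOU1, DNAJC3 and SEC61A1. It called 0 members lower, and 0 also at an unadjusted p under 0.05 or with DESeq2, while 7.52% of all genes tested were lower by this rule. The summed level of the 45 genes was 8919, 8825 and 9045 CPM in the DMSO libraries and 12634, 12424 and 12391 CPM with GNF5, a ratio of means of 1.40. Within a group the libraries were close: the coefficient of variation of a member had a median of 2.76% with DMSO and 2.47% with GNF5 and was at most 8.15%. The lowest count of a member in a library was 893, for WFS1.

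**Figure D1:**
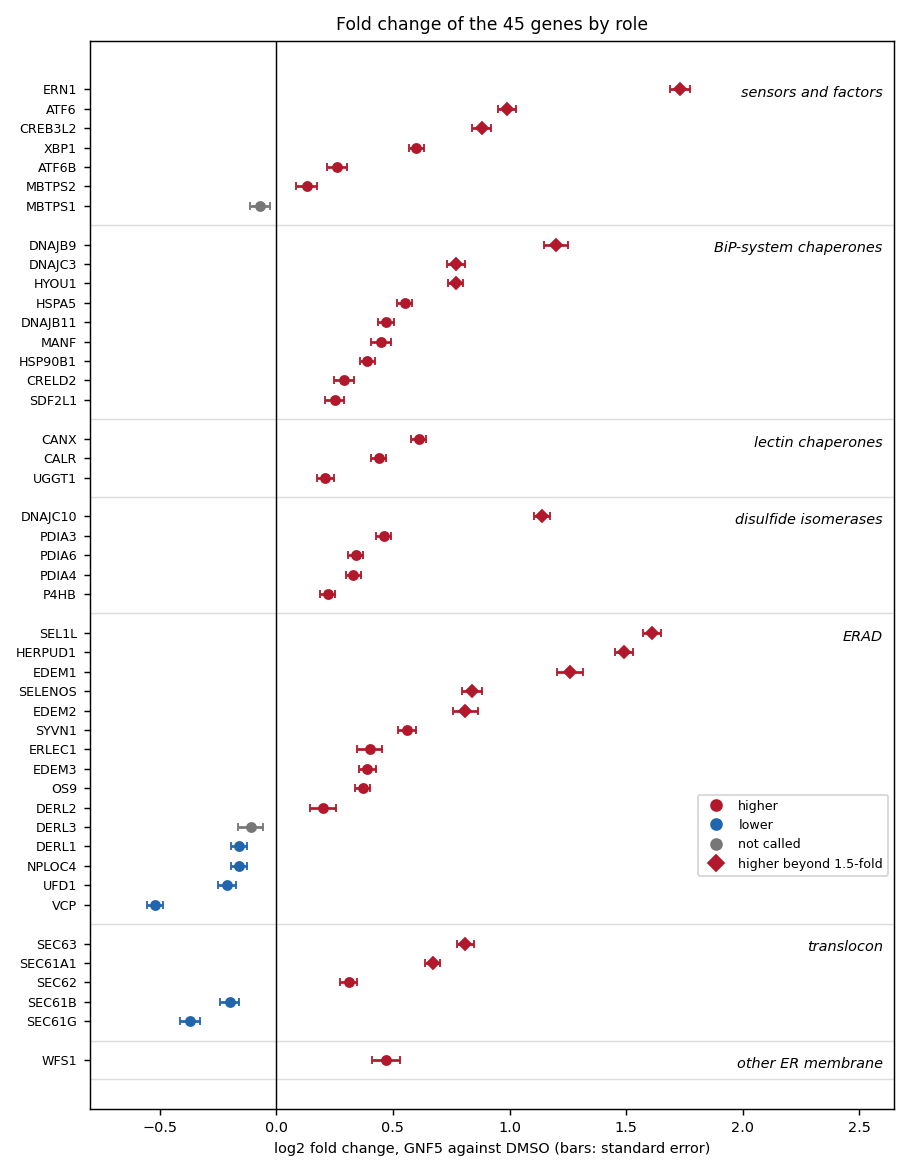
Log2 fold change of each of the 45 genes (x axis, GNF5 against DMSO) with its standard error, ordered within its role. Red marks genes that rose, blue genes that fell and grey those that did not pass; diamonds mark the 14 that passed the test against 1.5-fold. ERN1 (1.73) and SEL1L (1.61) lie farthest right and VCP (-0.52) farthest left.

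The promoters show what a subset of these genes has in common in sequence. The ER stress response element (ERSE) is CCAAT and, after any 9 bases, CCACG; the related ERSE-II is ATTGG and, after any 1 base, CCACG. ATF6 and XBP1 are known to act through them, while the element UPRE (TGACGTGG) is bound by XBP1 and the element TGATGNAA by ATF4 with C/EBP partners. These 4 motifs were searched on both strands in RefSeq promoters of GRCh38.p14, from 250 bases before to 50 after each annotated start. The table held 41 of the 45 genes. ERSE occurred in 7 of these 41 (17.1%), against 25 of all 27305 genes in the table (0.0916%), and ERSE-II in 3 (7.32%), against 19 (0.0696%). UPRE was found in 4 members (9.76% against 0.927%) and the ATF4 element in 2 (4.88% against 4.46%). The shares of promoters of that length with each motif were 0.0769%, 0.0541%, 0.729% and 3.62%. These are elements of ER stress genes, the kind of gene listed here, so the shares are a description and no test. A match describes the letters only and shows no binding. ERSE, ERSE-II and UPRE can overlap, since UPRE holds CCACG on its other strand. Genes that face each other across a short interval can share a match.

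The ERSE members are shown because they include the main chaperones. Each sequence runs 5′ to 3′ on the strand of its gene, ends before the start, and has in capitals the CCAAT and CCACG blocks, or CGTGG and ATTGG where the match lies on the opposite strand. HSPA5 is shown over the 250 bases before its start, with the match at -66 to -48 from it, and HSP90B1 holds 2 matches. CANX has 4 annotated starts in the table, 3 of them with the same match. From the nearest of these 3 starts the match runs from -9 to 10, so the CANX sequence spans that start.
HSPA5, chr9:125241344-125241593, minus strand: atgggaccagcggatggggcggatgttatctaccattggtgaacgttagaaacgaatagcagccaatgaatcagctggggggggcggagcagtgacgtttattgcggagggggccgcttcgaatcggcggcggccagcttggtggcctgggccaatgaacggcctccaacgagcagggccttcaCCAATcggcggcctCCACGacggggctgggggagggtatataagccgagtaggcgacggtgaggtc
HSP90B1, chr12:103930204-103930351, plus strand: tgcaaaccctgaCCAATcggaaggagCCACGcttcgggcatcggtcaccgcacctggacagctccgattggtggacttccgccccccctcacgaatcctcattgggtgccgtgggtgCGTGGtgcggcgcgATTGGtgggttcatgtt
CALR, chr19:12938372-12938414, plus strand: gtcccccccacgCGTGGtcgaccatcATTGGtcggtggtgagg
CANX, chr5:179698766-179698808, plus strand: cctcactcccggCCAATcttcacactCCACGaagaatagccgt
PDIA6, chr2:10812841-10812883, minus strand: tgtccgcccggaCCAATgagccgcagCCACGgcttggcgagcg
CRELD2, chr22:49918542-49918584, plus strand: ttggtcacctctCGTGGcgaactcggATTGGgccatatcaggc
XBP1, chr22:28800591-28800633, minus strand: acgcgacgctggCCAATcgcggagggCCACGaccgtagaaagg

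The ERSE-II members are shown with the same marking, and with UPRE and ATF4 matches in capitals as well. HERPUD1 has an ATF4 match (opposite strand) upstream of its ERSE-II. HYOU1 has 2 ERSE-II matches on the opposite strand, and a UPRE match overlaps the farther of them.
HERPUD1, chr16:56931954-56932047, plus strand: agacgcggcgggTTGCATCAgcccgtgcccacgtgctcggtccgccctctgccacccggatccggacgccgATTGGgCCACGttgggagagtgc
HYOU1, chr11:119057262-119057405, minus strand: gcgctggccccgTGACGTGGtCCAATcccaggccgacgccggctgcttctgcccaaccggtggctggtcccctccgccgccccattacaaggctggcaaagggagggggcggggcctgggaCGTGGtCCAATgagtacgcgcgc
SDF2L1, chr22:21642102-21642136, plus strand: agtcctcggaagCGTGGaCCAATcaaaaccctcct

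All 10 genes with ERSE or ERSE-II rose, as did 26 of the 31 others in the promoter table. Their log2 fold changes had similar medians, 0.50 with and 0.45 without a match. None of the 7 ERSE genes was among the 14 that passed the test against 1.5-fold, while 2 of the 3 ERSE-II genes (HERPUD1 and HYOU1) were. The other 12 of those 14 had no exact match to either element in the window searched. This says nothing about inexact matches or about elements elsewhere. UPRE matches lay in DNAJC10, HYOU1 and SEC62, which rose, and in VCP, which fell. The ATF4 element lay in HERPUD1 and CREB3L2.

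**Figure D2:**
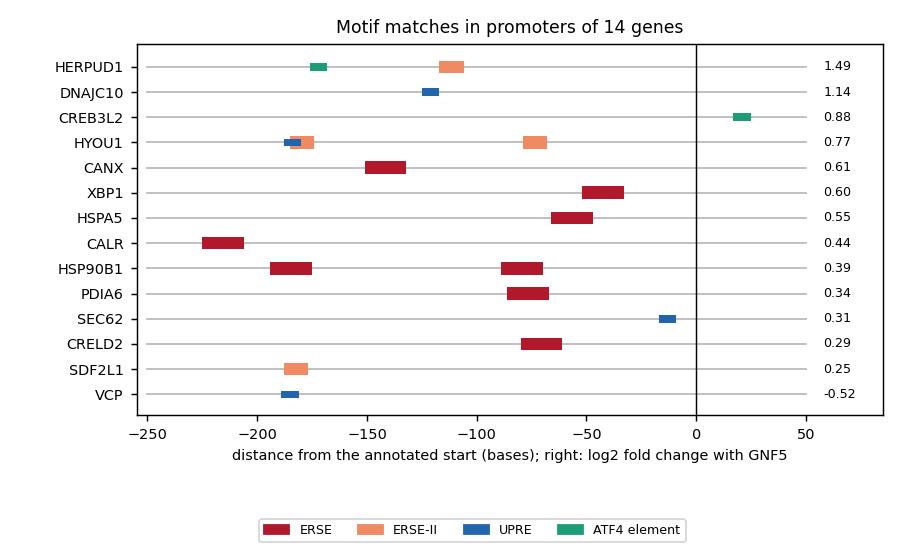
Position of each motif match (x axis, bases from the annotated start) in the promoters of the 14 genes with a match, ordered from the largest rise to the fall of VCP; for CANX, 1 of 3 starts with the match is drawn. Numbers on the right are log2 fold changes, from 1.49 for HERPUD1 to -0.52 for VCP, and the ERSE genes (dark red) lie between 0.61 and 0.29.

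Of the stress sensors and factors, ERN1, ATF6 and CREB3L2 passed the test against 1.5-fold, XBP1 and ATF6B rose less, and the proteases barely moved. ERN1 (ENSG00000178607, chromosome 17, 64039142 to 64130819, GRCh38), which encodes the kinase and RNase IRE1, had 28.2, 27.7 and 27.7 CPM with DMSO and 96.5, 89.7 and 91.3 CPM with GNF5. The groups were far apart, and the log2 fold change of 1.73 ± 0.043 (SE; edgeR adjusted p = 5.2e-23) was the highest of the 45. ATF6 (ENSG00000118217, chromosome 1, 161766320 to 161964070) had 65.8, 68.6 and 70.9 CPM with DMSO and 140.3, 133 and 134 with GNF5, a rise of 0.99 ± 0.038 on the log2 scale (adjusted p = 1.05e-18). Its paralog ATF6B rose by 0.26 ± 0.042, from 62.6 ± 3.03 to 75.1 ± 1.82 CPM (SD, n = 3). In CPM per kilobase of exon, ATF6 stood at 0.481 to 0.525 of the ATF6B level with DMSO and at 0.809 to 0.852 with GNF5. On that scale ATF6B was the higher of the pair in every library, while in CPM ATF6 was. The order depends on the exon lengths used, 7864 bases for ATF6 and 3629 for ATF6B. These cover all annotated exons, not the transcripts expressed, which limits every comparison between genes per kilobase. CREB3L2, a membrane-bound factor related to ATF6, rose from 45.8 ± 1.26 to 84.2 ± 2.16 CPM.

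XBP1 (ENSG00000100219, chromosome 22, 28794555 to 28800597), the substrate of IRE1, had 202, 203 and 209 CPM with DMSO and 318, 309.9 and 304 with GNF5. It rose by 0.60 ± 0.032 (adjusted p = 1.63e-15) but did not pass against 1.5-fold (adjusted p = 0.554). Per kilobase it was by far the highest of the 7 sensor genes, at 67.6 ± 1.25 CPM per kilobase with DMSO and 103 ± 2.24 with GNF5. ERN1 was the lowest with DMSO, at 2.56 ± 0.0266 CPM per kilobase, and rose to 8.51 ± 0.329. The ERN1 level per kilobase was 0.0369 to 0.0388 of that of XBP1 with DMSO and 0.0806 to 0.0846 with GNF5.

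The site-1 protease gene MBTPS1 had 64.0, 61.8 and 67.5 CPM with DMSO and 58.9, 62.4 and 63.0 with GNF5, so the groups overlapped, and its log2 fold change of -0.07 ± 0.043 did not pass (adjusted p = 0.172). Without DMSO replicate 2 it was -0.106 with an adjusted p of 0.047, and its range over the 13 alternatives was 0.047 to 0.531. The site-2 protease gene MBTPS2 was 39.9 ± 1.45 CPM with DMSO and 43.8 ± 0.651 with GNF5, which is a log2 fold change of 0.13 ± 0.045 (adjusted p = 0.0108). That call was lost without DMSO replicate 1 (adjusted p = 0.0508) or replicate 2 (0.0636), over a range of 0.0106 to 0.0636. Fragments in the 13.4% of MBTPS2 exon bases shared with YY2, and in the 9.92% of ATF6B shared mostly with TNXB, were left out of the counts.

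All 9 chaperone genes of the BiP system rose, with log2 fold changes from 0.25 to 1.20. HSPA5 (ENSG00000044574, chromosome 9, 125234853 to 125241343) encodes BiP, the HSP70 of the ER. It had 720.2, 707 and 752 CPM with DMSO and 1078, 1059.6 and 1051 with GNF5, which is a log2 fold change of 0.55 ± 0.033 (adjusted p = 1.53e-14). Its promoter carries the ERSE shown above. HSP90B1, the ER HSP90 also called GRP94, had 966, 973 and 992 CPM with DMSO and 1310.4, 1284 and 1256 with GNF5, a smaller rise of 0.39 ± 0.032. Every GNF5 library was above every DMSO library for both genes, as for 33.1% of all genes tested. HYOU1, a large HSP70-like protein that exchanges nucleotide on BiP, rose more, from 508 ± 11.1 to 869 ± 4.29 CPM (log2 fold change 0.77 ± 0.032).

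J-domain proteins, which bring clients to BiP and start its ATPase cycle, included the largest chaperone rise. DNAJB9, also called ERdj4, had 31.3, 33.7 and 36.1 CPM with DMSO and 82.6, 72.9 and 76.8 with GNF5 (log2 fold change 1.20 ± 0.051, adjusted p = 7.55e-18). DNAJC3 (p58IPK), which also inhibits eIF2 kinases, went from 80.1 ± 4.33 to 137 ± 4.83 CPM, and DNAJB11 (ERdj3) from 104 ± 0.473 to 144 ± 4.04. DNAJC10 (ERdj5), a reductase with a J domain counted here with the isomerases, had 96.5, 97.9 and 98.3 CPM with DMSO and 219, 212 and 213 with GNF5, without overlap. Of these 4 J-domain genes, DNAJB11 alone did not pass against 1.5-fold.

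SDF2L1 and CRELD2 had the smallest rises of the 9. SDF2L1, a partner of DNAJB11 in binding unfolded proteins, had 74.1, 70.5 and 75.4 CPM with DMSO and 83.5, 87.2 and 90.9 with GNF5 (log2 fold change 0.25 ± 0.041, adjusted p = 5.12e-06). CRELD2 rose by 0.29 ± 0.044 and MANF, a secreted protein that binds BiP, by 0.45 ± 0.044. These are often used as readouts of ER stress. All 3 had every GNF5 library above every DMSO library, as did 33.1% of all genes tested. Per kilobase with DMSO, the chaperones were ordered HSP90B1 (208 ± 2.85 CPM per kilobase), HSPA5 (185 ± 5.86), SDF2L1 (69.2 ± 2.40), HYOU1 (65.8 ± 1.43), MANF (28.0 ± 1.67), DNAJB11 (18.2 ± 0.0825), DNAJC3 (14.3 ± 0.775), DNAJB9 (13.3 ± 0.938) and CRELD2 (9.17 ± 0.436). The ranges of mean ± SD overlapped for SDF2L1 and HYOU1, and for DNAJC3 and DNAJB9. That overlap does not compare the genes within each library. With GNF5, the ranges of HSP90B1 (273 ± 5.82) and HSPA5 (271 ± 3.55) overlapped too, and HYOU1 (112 ± 0.555) was above SDF2L1 (82.3 ± 3.52).

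**Figure D3:**
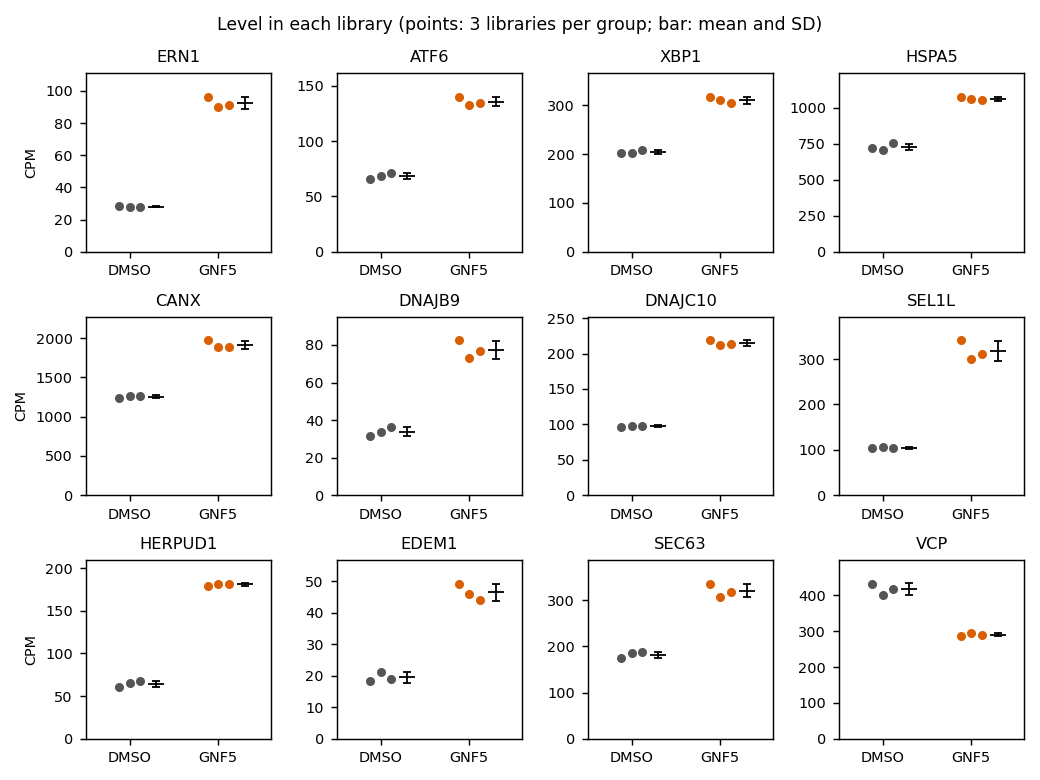
CPM (y axes, from 0) of 12 genes in each of the 3 DMSO (grey) and 3 GNF5 (orange) libraries, with the group mean and SD as a bar. In every panel the groups are apart: 11 genes are higher with GNF5, and VCP is lower, at 286 to 295 CPM against 399.8 to 433.

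Lectin chaperones, which hold glycoproteins through their sugar chains, rose. CANX (calnexin) had 1239, 1269 and 1262 CPM with DMSO and 1977, 1883 and 1886 with GNF5 (log2 fold change 0.61 ± 0.033), the highest counts of the 45 genes. The soluble form of this activity, CALR (calreticulin), rose from 829 ± 20.3 to 1126 ± 16.5 CPM. Per kilobase CALR was the highest of all 45 genes in both groups (305 ± 7.48 and 415 ± 6.09 CPM per kilobase). UGGT1, which re-glucosylates misfolded glycoproteins so that they bind calnexin again, rose by only 0.21 ± 0.036, from 102 ± 1.62 to 118 ± 3.32 CPM.

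The 4 classical disulfide isomerases rose modestly. P4HB (PDI itself) had 577, 573 and 598 CPM with DMSO and 668, 699 and 673 with GNF5, which is a log2 fold change of 0.22 ± 0.032 (adjusted p = 8.14e-07). PDIA4 and PDIA6 rose by 0.33 ± 0.032 and 0.34 ± 0.033. PDIA3 (ERp57), the partner of calnexin and calreticulin, rose by 0.46 ± 0.031, from 408 ± 6.65 to 561 ± 8.47 CPM, although its pseudogene PDIA3P1 held counts equal to 9.74% of its own and the split between them is uncertain. None of these 4 passed against 1.5-fold, unlike DNAJC10 (log2 fold change 1.14 ± 0.034, adjusted p = 5.53e-15 against 1.5-fold), which reduces disulfides of proteins bound for degradation.

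ERAD genes differed by part. Of 15 genes, 10 rose (66.7%) and 4 fell, beside 31.0% and 30.7% of all genes tested. The falls are thus near the share over all genes. All 5 genes that recognise and trim glycans rose, 5 of the 7 genes of the membrane complex rose, and all 3 genes of the cytosolic extraction machine fell. This split by place in the pathway was drawn with the results known. SEL1L (ENSG00000071537, chromosome 14, 81471547 to 81533853), the adaptor that stabilises the HRD1 ligase, had 103, 106 and 104 CPM with DMSO and 342, 301 and 311 with GNF5, which is a log2 fold change of 1.61 ± 0.039 (adjusted p = 3.26e-23). The ligase HRD1 itself, encoded by SYVN1, rose by 0.56 ± 0.039, from 59.4 ± 1.00 to 87.5 ± 1.72 CPM. With DMSO the levels of SEL1L and SYVN1 per kilobase were nearly equal (ratio 0.983 to 1.03 in the 3 libraries), and with GNF5 the ratio was 1.99 to 2.20. SYVN1 shares 3.51% of its exon bases with other gene models, among them the highly expressed FAU.

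HERPUD1 (ENSG00000051108, chromosome 16, 56932142 to 56944864), a ubiquitin-like membrane protein that assembles HRD1 complexes, had 61.0, 65.0 and 67.7 CPM with DMSO and 179, 182 and 182 with GNF5, which is a log2 fold change of 1.49 ± 0.038 (adjusted p = 9.16e-23). It was the only member with both an ERSE-II and an ATF4 match in the window searched. SELENOS, a selenoprotein that ties VCP to the derlins, rose from 48.0 ± 1.71 to 85.6 ± 3.30 CPM. The derlins, which form part of the exit channel, moved little and not together. DERL1 fell from 99.6, 98.5 and 99.8 CPM with DMSO to 87.8, 87.8 and 91.0 with GNF5 (log2 fold change -0.16 ± 0.036, adjusted p = 0.000347), and DERL2 rose by 0.20 ± 0.057. DERL3 had 25.2, 26.7 and 25.2 CPM with DMSO and 24.1, 24.2 and 23.3 with GNF5. Its groups did not overlap, but its log2 fold change of -0.11 ± 0.052 did not pass (adjusted p = 0.0717). It was called lower with upper-quartile factors and with a stricter filter on low counts (adjusted p = 0.0271 in each), over a range of 0.0271 to 0.214.

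The mannosidase-like EDEM proteins mark misfolded glycoproteins for removal, and their genes rose by different amounts. EDEM1 had 18.2, 21.3 and 18.9 CPM with DMSO and 49.3, 46.1 and 44.1 with GNF5 (log2 fold change 1.26 ± 0.057). EDEM2 rose by 0.81 ± 0.054 and EDEM3 by 0.39 ± 0.037. Per kilobase, EDEM1 was the lowest of the 3 in both groups, but its share of the EDEM3 level went from between 0.261 and 0.287 with DMSO to between 0.469 and 0.520 with GNF5. The lectins that read the trimmed glycans, OS9 and ERLEC1, rose by 0.37 ± 0.032 and 0.40 ± 0.055.

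The ATPase VCP (p97), which with its cofactors UFD1 and NPLOC4 pulls ubiquitinated proteins out of the membrane, went the other way. VCP (ENSG00000165280, chromosome 9, 35056064 to 35072627) had 433, 399.8 and 418 CPM with DMSO and 286, 295 and 290.0 with GNF5, which is a log2 fold change of -0.52 ± 0.034 (adjusted p = 9.59e-14) and the largest fall of the 45 genes. UFD1 had 90.5, 88.3 and 90.8 CPM with DMSO and 79.3, 75.6 and 78.5 with GNF5 (-0.21 ± 0.038, adjusted p = 2.33e-05). NPLOC4 had 133, 129.7 and 131 CPM with DMSO and 116, 118 and 119.6 with GNF5 (-0.16 ± 0.034, adjusted p = 0.000257). None of the 3 overlapped between groups, but every GNF5 library was also below every DMSO library for 32.8% of all genes tested. The summed level of these 3 genes was 618 to 656 CPM with DMSO and 481 to 489 with GNF5, whereas the 7 genes of the membrane complex summed to 417 to 424 and 791 to 834. Per kilobase, SEL1L stood at 0.120 to 0.133 of VCP with DMSO and at 0.514 to 0.603 with GNF5. VCP also serves many processes outside ERAD.

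The translocon held rises and falls as well: 3 of 5 genes rose and 2 fell, beside 31.0% and 30.7% of all genes tested. SEC61A1 (ENSG00000058262, chromosome 3, 128051641 to 128071683), the pore-forming subunit, had 197, 187 and 192 CPM with DMSO and 296, 308 and 314 with GNF5, which is a log2 fold change of 0.67 ± 0.034 (adjusted p = 2.84e-16, and 0.0159 against 1.5-fold). The small subunits that complete the channel fell. SEC61B had 117, 107 and 117 CPM with DMSO and 92.5, 101 and 104 with GNF5 (-0.20 ± 0.042, adjusted p = 0.000168), and SEC61G had 77.2, 79.7 and 78.0 with DMSO and 57.0, 64.1 and 61.3 with GNF5 (-0.37 ± 0.043, adjusted p = 1.88e-08). The SEC61A1 level per kilobase was 0.430 to 0.455 of that of SEC61B with DMSO and 0.789 to 0.834 with GNF5. The 2 small-subunit genes have short exons in all (1209 and 1842 bases, against 4640 for SEC61A1). Across the 45 genes the rank correlation (Spearman's rho) of fold change with exon length was 0.13, and across all genes tested 0.08, as a description of genes that share libraries.

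SEC62 and SEC63, which help precursors enter the channel after translation and link it to BiP, both rose. SEC63, itself a J-domain protein, had 175, 185 and 187 CPM with DMSO and 336, 308 and 317 with GNF5 (log2 fold change 0.81 ± 0.036, adjusted p = 1.88e-17), the largest translocon rise. SEC62 rose by 0.31 ± 0.035, from 119 ± 2.57 to 147 ± 2.95 CPM. WFS1, an ER membrane protein lost in Wolfram syndrome, rose from 15.8, 15.6 and 17.1 CPM with DMSO to 21.8, 23.5 and 21.8 with GNF5, without overlap (log2 fold change 0.47 ± 0.061).

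**Figure D4:**
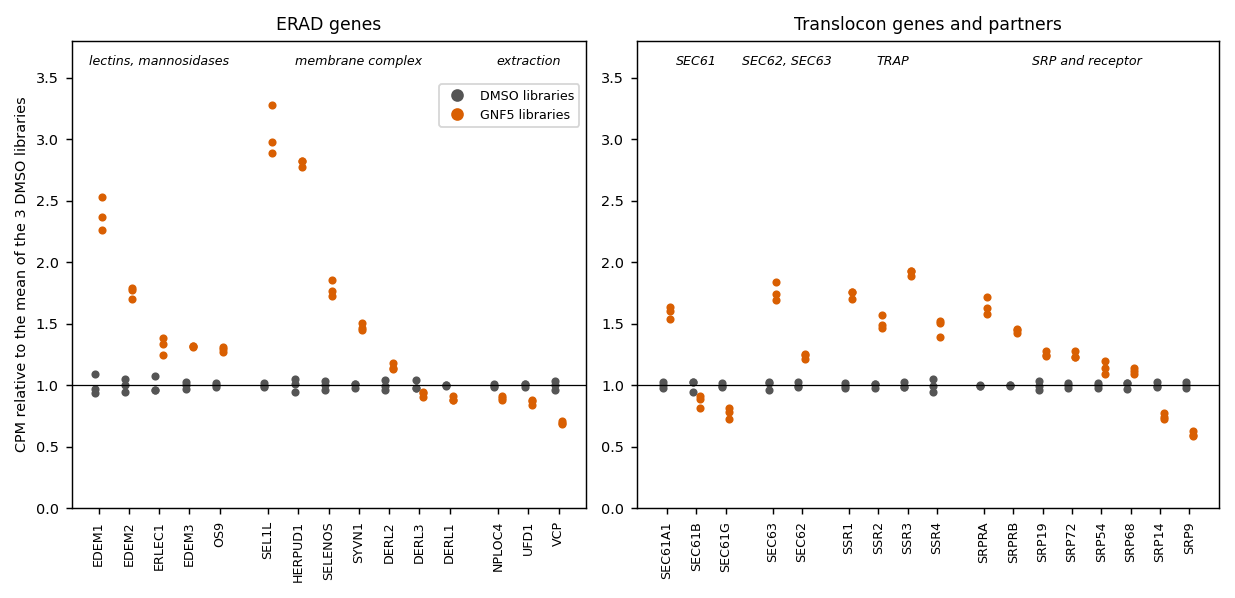
CPM of each gene in each library divided by the mean of its 3 DMSO libraries (y axis, from 0), for the 15 ERAD genes (left) and for translocon genes with the TRAP complex and the signal recognition particle (right). SEL1L and HERPUD1 stand highest. DERL1, DERL3, the genes of the extraction machine, SEC61B, SEC61G, SRP14 and SRP9 lie below 1 in all GNF5 libraries (orange).

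Within the set, the signed log2 fold change did not track the mean level over both groups, a level that includes the change itself. The rank correlation of log2 fold change with the mean level per kilobase was -0.01 over the 45 genes and 0.00 over all genes tested. The largest rises (ERN1, SEL1L, HERPUD1, EDEM1, DNAJB9 and DNAJC10) nonetheless started low, from 2.56 to 13.3 CPM per kilobase with DMSO. DERL2 (3.04) and MBTPS1 (6.27) were also low with DMSO and moved little. Members near the same DMSO level ended at different levels. SEL1L (10.9 ± 0.161 CPM per kilobase), SYVN1 (10.8 ± 0.183), EDEM3 (10.7 ± 0.313) and UFD1 (10.3 ± 0.159) had close levels with DMSO. With GNF5 they stood at 33.3 ± 2.22, 15.9 ± 0.314, 14.0 ± 0.0842 and 8.92 ± 0.223 CPM per kilobase.

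**Figure D5:**
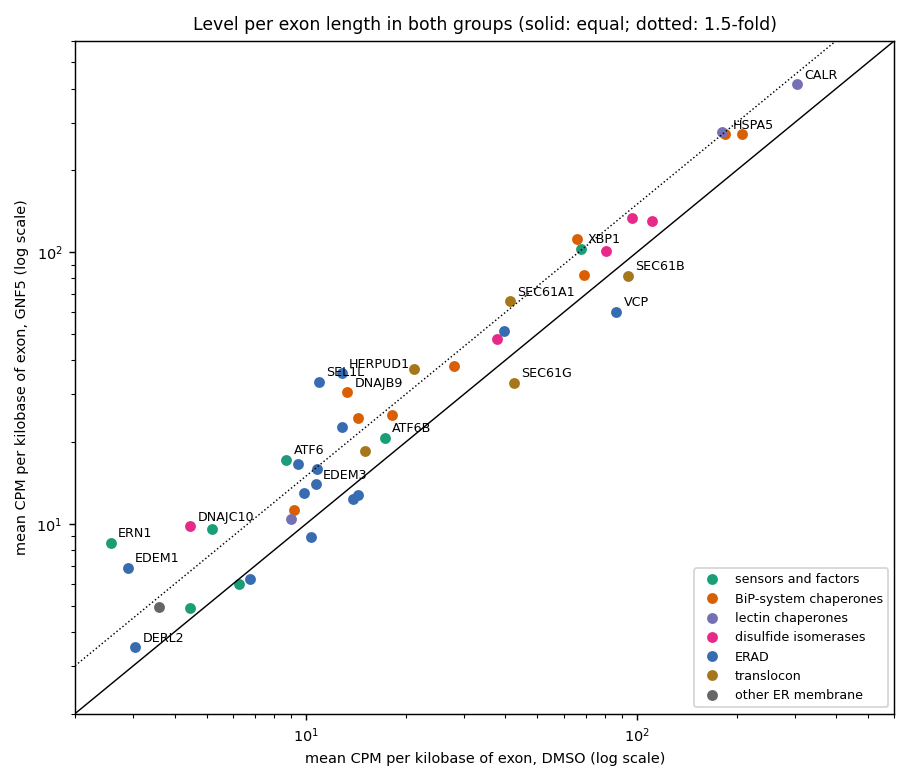
Mean CPM per kilobase of exon with DMSO (x axis) and GNF5 (y axis), both on log scales, for the 45 genes coloured by role; the solid line is equality and the dotted line 1.5-fold. The genes farthest above the dotted line, ERN1, EDEM1, SEL1L, HERPUD1, DNAJB9 and DNAJC10, lie in the lower left, and CALR is at the top right.

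In the lists of genes that work beside these members in the ER, rises outnumbered falls. The third sensor, EIF2AK3 (PERK), rose from 20.4 ± 0.559 to 33.0 ± 1.17 CPM, and of the 8 genes in the list of its arm 7 rose and EIF2S1 did not pass. The largest rises were in TRIB3 (log2 fold change 3.44), DDIT3 (2.42) and PPP1R15A (1.80). Among 29 other ERAD genes tested, 16 rose and 6 fell (median 0.12), with RHBDD1, MAN1B1 and TRAM1 at 0.86, 0.78 and 0.78. TRAM1 was counted in this list, although its paralog TRAM2 was counted with the translocon partners. Of 30 other ER folding factors 21 rose and 3 fell (median 0.30), with the prolyl isomerase PPIC, the collagen chaperone SERPINH1 and HSPA13 at 1.71, 1.52 and 1.01. For 22 genes of ER redox and other isomerases tested the counts were 10 and 6 (median 0.13), with ERP29 higher by 1.08 and QSOX1 lower (-1.66). Of the 4 tested relatives of CREB3L2, 2 rose and 1 fell.

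The machinery of targeting held rises and falls, as SEC61 did. The 4 TRAP subunits, which sit beside the channel, all rose (SSR3 by 0.93, SSR1 by 0.80, SSR2 by 0.59 and SSR4 by 0.56), and of all 15 translocon partners 9 rose and 4 fell (median 0.42). Of 13 genes of the signal peptidase and the signal recognition particle 10 rose and 3 fell (median 0.32). The receptor subunit SRPRA rose by 0.71, while SRP9 and SRP14, which form the Alu domain of the particle, fell (-0.73 and -0.42). In the oligosaccharyltransferase 6 of 12 genes rose and 4 fell (median 0.13), with OSTC higher by 0.91 and TMEM258 lower (-0.43). Of 10 subunits of the ER membrane protein complex, 4 rose and 2 fell (median 0.01). Each of these counts reads against the 31.0% of all tested genes that rose and the 30.7% that fell.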

How the data were processed

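RNA sequencing counts of NCI-H69 cells were analysed for 3 DMSO and 3 GNF5 libraries, grouped by the treatment labels. The deposited values are raw counts of fragments per gene. Per the file headers, the authors counted with featureCounts 1.6.1 in paired, reverse-stranded mode over exons of Ensembl release 101 (GRCh38), and its default leaves out multi-mapped fragments and those in several genes. HTSeq and GRCh37 appear in the submitters' processing notes, beside STAR, DESeq2 and Trim Galore and with no role; this differs from the headers, which were followed.

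Symbols were looked up by ID (60401 of 60671 matched). edgeR 4.0.16 in R 4.3.3 was run on the whole table with its default expression filter (20734 genes kept, 0.0630% of counts removed), TMM, a robust quasi-likelihood fit, no covariate and Benjamini-Hochberg adjustment over all genes tested. glmTreat tested against 1.5-fold. The SE is the log2 fold change divided by the square root of F. A gene with 3 counts has 0.0496 to 0.0647 CPM here. No libraries were repeats: within groups, chi-square per degree of freedom was 3.02 to 8.00. Code was tested on simulated data.

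All 45 members are named. By rule, those with the largest change of their role or against its direction are given by library; ATF6, XBP1, HSPA5, HSP90B1, SDF2L1, P4HB, HERPUD1, EDEM1 and SEC61A1 were added after their values were seen. Other pathway lists give up to 3 called genes of largest change with a mean log2 CPM of at least 1. EIF2AK3, EIF2S1, SSR2, SSR4, SRP14 and the genes found by promoter sequence outside the 45 were named after their values were seen. Marker genes of cell types were named outside this rule. Of these, NEUROD1 (mean log2 CPM 0.31), IGKC (0.31) and IGHG1 (-0.94) lie below that level. The members, roles and lists were chosen with earlier results of these data known. Alternatives were other size factors (2), DESeq2 1.42.0, 2 filters, a replicate block, a fit that is not robust and leaving out each library.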

Additional observations from a re-analysis of the deposited data

How the results depend on the processing

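Under the 13 alternatives run, 36 to 37 members were higher, 6 to 7 lower, 13 to 14 higher beyond 1.5-fold and 0 lower beyond it. Of 585 single-gene values under these alternatives, 580 kept their direction and their side of the threshold and 0 changed sign with a call. The remaining 5 concerned MBTPS1, MBTPS2 and DERL3, whose values stand beside them above; the cause was not tested. Leaving out a library gave 36 to 37 higher and 6 to 7 lower members. With a replicate block the counts were 37 and 6, as without it. Same-numbered libraries did not deviate together (correlations -0.116, -0.036 and 0.004 for numbers 1, 2 and 3), so no shared shift was seen. These values cannot show whether the samples were handled in pairs. DESeq2 and upper-quartile size factors shifted the median gene by -0.006 and -0.026 on the log2 scale. The lowest count of a member in a library was 893, far from the floor of 3 counts; 3 libraries per group limit the estimate of the spread.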

Other observations

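Outside the 45 genes, ERSE matches lay in the promoters of 8 further genes that were tested, of which 6 rose. TMEM120A rose from 4.69 ± 0.107 to 11.7 ± 1.29 CPM (SD, n = 3), FICD, which modifies BiP by AMPylation, from 9.06 ± 0.298 to 15.8 ± 0.868, and SERP1, which binds the SEC61 complex, from 89.5 ± 3.92 to 139 ± 4.84. EIF2A, ERO1B and ZNF17 rose by 0.38, 0.21 and 0.24 on the log2 scale. ALG12 (0.13 ± 0.055) and SYNPO (0.20 ± 0.094) did not pass. ERSE-II matches lay in 12 further tested genes, of which 4 rose and 5 fell, with NUCB1, a calcium-binding Golgi protein, at 0.56 and SHCBP1 at -0.50. Over all 20 such genes 10 rose and 5 fell, beside 31.0% and 30.7% of all genes tested. These genes were found by sequence and then read for their counts, and no test was made.

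Genes of ER export and turnover were measured in the same libraries. Of 14 COPII coat genes, 9 rose and 5 did not pass (median 0.19). SEC31B, at 4.67 ± 0.374 CPM with DMSO and 8.88 ± 0.358 with GNF5, and the cargo adaptor SEC24D, at 44.8 ± 1.31 and 77.1 ± 0.710, had the largest rises. Of 8 receptors that deliver ER to autophagosomes, 4 rose and 2 fell. These counts stand beside 31.0% of all tested genes that rose and 30.7% that fell, and the falls among the receptors are near that share. CCPG1 rose from 13.0 ± 1.16 to 48.3 ± 3.61 CPM (log2 fold change 1.89 ± 0.062), more than any of the 45 members, and RTN3 and CALCOCO1 rose by 0.57 and 0.45.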
